A study of Homo sapiens with 27 samples.

Results

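This comparison sets 2 shRNAs that target the same gene against each other in the same cells. 22Rv1 cells, a hormone-insensitive human prostate cancer line, carried either CPSF1 sh1 or CPSF1 sh2, and the 3 CPSF1 sh2 libraries were tested against the 3 CPSF1 sh1 libraries with no control in the test. These are 6 of the 27 libraries of the series, chosen by their titles. The other libraries are the 3 with the control shRNA (CTRL sh) in 22Rv1 and the 18 of LNCaP and LNCaP95 cells, and they enter only where named. Each shRNA was delivered by the lentiviral pGIPZ vector, and CTRL sh is a non-silencing shRNA in the same vector. Every group, the controls included, is a stably infected pool selected with puromycin, at 2 µg/mL in 22Rv1 and LNCaP and 1 µg/mL in LNCaP95, and RNA was taken after 72 h of growth.

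CPSF1 encodes the large scaffold subunit of CPSF (cleavage and polyadenylation specificity factor), a complex that recognizes the poly(A) signal of a nascent transcript so that it is cut and given its poly(A) tail. When cleavage at the normal site is inefficient, transcription can run on, and the transcript can be cut at a later site. Poly(A) sites inside introns can be used as well. Poly(A)-ClickSeq (PAC-seq) reads the junction of transcript and tail, and its reads were counted per gene in 4 tables: the 3′ UTR, the introns, the coding sequence (CDS) and the 10 kb downstream of the gene. A second shRNA is the usual control for effects that come from the sequence of an shRNA and not from the loss of its target. A gene that differs between the 2 shRNAs can lie beyond the controls with both and further with 1 of them, which is called graded here when no libraries of the 3 groups overlap, or it can leave the control level with 1 shRNA alone.

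The 22Rv1 libraries held 3452413 to 8470629 reads with CTRL sh, 6436202 to 12425417 reads with CPSF1 sh1 and 9359950 to 11780581 with CPSF1 sh2. Values below are CPM (reads scaled to a fixed library total) of the reads of 1 table, scaled by the trimmed mean of M values (TMM). Some libraries stood apart. CTRL sh replicate 1 and CPSF1 sh1 replicate 1 lay away from the other 7 libraries on the leading principal component of the 3′ UTR table (0.80 and 0.35, against -0.29 to -0.0014). CPSF1 sh2 replicate 2 differed more from its 2 partners (chi-square per degree of freedom 17.9 and 14.3) than these did from each other (3.95), and CPSF1 sh1 replicate 1 more from its own partners (13.2 and 12, against 3.78). The summed level of 10 luminal prostate markers was 2790 to 2880 CPM with CPSF1 sh2 and 2930 to 3130 CPM with CPSF1 sh1, none was at 0 reads, and the part of this gap in the results was not tested. The summed basal markers were 126 to 141 CPM with CPSF1 sh1 and 119 to 144 CPM with CPSF1 sh2, and those of fibroblasts, endothelial cells and leukocytes reached at most 26.7, 13.1 and 8.08 CPM in these 6 libraries. The labels number the libraries BR1 to BR3, and the paper calls them biological replicates. Neither says whether they are separate infections, so p-values measure the spread between these libraries, which may not include that between infections.

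CPSF1 itself did not separate the shRNAs. Its 3′ UTR reads were 201, 133 and 145 CPM in the 3 CTRL sh libraries, 102, 89.3 and 113 CPM with CPSF1 sh1, and 93.1, 84.4 and 90.1 CPM with CPSF1 sh2. All 6 knockdown libraries were below all controls, and the 2 shRNAs overlapped. Against CTRL sh the log2 fold change was -0.64 with CPSF1 sh1 (edgeR adjusted p = 0.12) and -0.82 with CPSF1 sh2 (edgeR adjusted p = 0.0104), from the same controls. The log2 fold change of CPSF1 sh2 over CPSF1 sh1 was -0.19 (SE 0.12, adjusted p = 0.411 by edgeR's quasi-likelihood test with Benjamini-Hochberg adjustment, the test used throughout). Its sign turned to 0.0144 when the counts were corrected for base composition. Over the reads of all 4 tables the CPSF1 difference was -0.08 (SE 0.091, edgeR adjusted p = 0.692). A difference in CPSF1 was not detected at this spread, which does not show that the shRNAs lowered it equally.

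In the 3′ UTR table, 92 genes were higher with CPSF1 sh2 and 120 were lower, which is 0.796% and 1.04% of the 11554 genes tested. Of the gene lists described further on, the higher group held 5 metallothioneins and 5 p53 target genes, and the lower group 3 genes of sterol and fatty acid synthesis. The median size of a called change was 0.64 on the log2 scale, and only 26 of the 212 called genes changed by more than 2-fold (16 higher and 10 lower). In bulk RNA fewer cells that express a gene and less of its RNA per cell cannot be told apart. The count rested on single libraries. It was 7 without CPSF1 sh2 replicate 1, 22 without CPSF1 sh2 replicate 2, 9 without CPSF1 sh2 replicate 3, 834 without CPSF1 sh1 replicate 2 and 17 without CPSF1 sh1 replicate 3, while leaving out CPSF1 sh1 replicate 1 gave 260. MT1G, MT1H, FN1 and IGFBP3 were the 4 genes called in the main fit and under all 13 settings compared. Base composition moved with the direction. The median GC content of the counted regions was 40% for the higher genes, 55.7% for the lower genes and 43.4% for all genes tested, and its part in the result was not tested beyond a fit with a GC correction, added after the data were seen, which called 167 genes (83 higher and 84 lower).

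The genes of the 3′ UTR table were then set beside the controls. For the 92 higher genes the median log2 fold change over CTRL sh was -0.05 with CPSF1 sh1 (quartiles -0.31 and 0.17) and 0.60 with CPSF1 sh2 (0.37 and 1.14). For the 120 lower genes the medians were -0.04 with CPSF1 sh1 and -0.66 with CPSF1 sh2, beside -0.02 and -0.0039 over all genes tested. The order of each pair is fixed by the choice of the genes, and both comparisons share the same 3 controls. Of the 92 higher genes, CPSF1 sh1 had 6 called higher than CTRL sh and CPSF1 sh2 had 40. Of the 120 lower genes, 6 and 51 were called lower. Over all genes the edgeR fit called 51 genes with CPSF1 sh1 against CTRL sh (0.443%) and 400 with CPSF1 sh2 (3.48%). Without CTRL sh replicate 1 the medians became -0.17 and 0.45 for the higher genes and 0.17 and -0.47 for the lower genes. The small CPSF1 sh1 median of the lower genes thus turned its sign. The calls against CTRL sh depended on that library too. Without it, 301 of 11468 genes were called higher and 308 lower with CPSF1 sh1, and 325 and 402 with CPSF1 sh2. Of the 92 higher genes, 8 were then called higher and 12 lower with CPSF1 sh1, and 43 and 0 with CPSF1 sh2. Of the 120 lower genes, 7 were called higher and 11 lower with CPSF1 sh1, and 0 and 49 with CPSF1 sh2. Over the genes called with a replicate block, the medians were 0.12 and 1.03 for 16 higher genes and -0.38 and -1.17 for 10 lower genes. The 9 libraries were graded for 11 of the 92 higher genes (12%) and 16 of the 120 lower genes (13.3%), beside 0.736% and 1.19% of all genes tested, whose shRNA libraries were not chosen to differ.

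**Figure D1:**
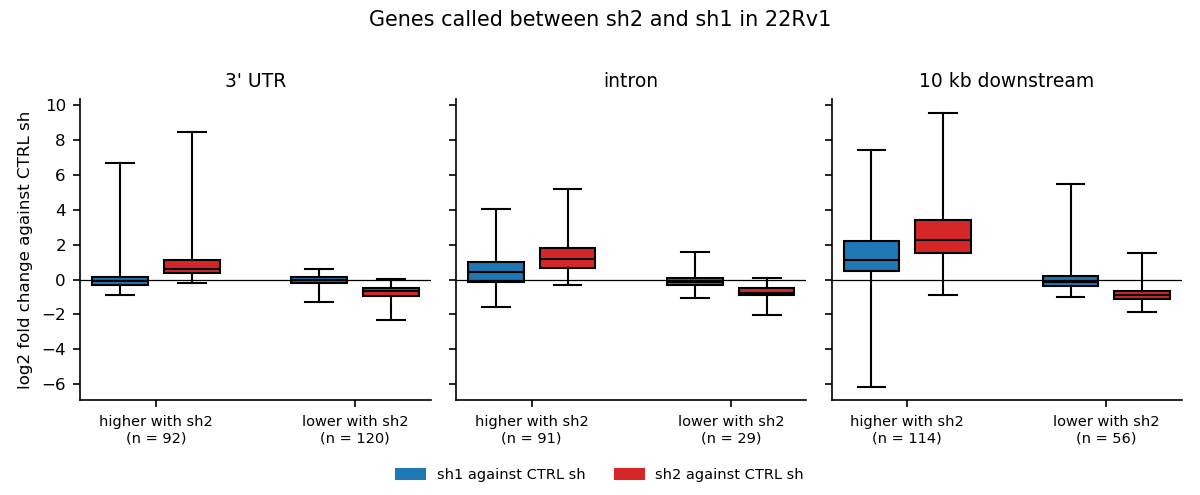
Log2 fold change against CTRL sh (vertical axis, the same in all panels) of the genes called between CPSF1 sh2 and CPSF1 sh1 in the 3′ UTR, intron and 10 kb tables of 22Rv1, with CPSF1 sh1 in blue and CPSF1 sh2 in red. Boxes span the quartiles, the line is the median and whiskers reach the lowest and highest gene; the most extreme values belong to genes with few or no control reads. The blue boxes lie around 0 in the 3′ UTR panel (medians -0.05 and -0.04) and above 0 for the higher genes of the 10 kb panel (median 1.15).

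Metallothioneins are small cysteine-rich proteins that bind zinc, copper and cadmium, and their genes are switched on by the metal-sensing factor MTF1. They led the higher genes of the 3′ UTR table. MTF1 binds metal response elements, whose core reads TGCACNC or TGCGCNC. The promoter entries matched in RefSeq (GRCh38.p14, 250 bases before to 50 after the transcript start) hold this core on both strands 8 times in MT1H, 4 times in MT1X and 8 times in MT2A, and at least 4 matches occur in 0.601% of the 35116 promoters of that table. MT1B and MT4 hold 3 matches each, as many as 2.3% of promoters hold or exceed, and had 1 and 0 reads in the 3′ UTR table over the 6 libraries. The match at -53 (MT1H and MT1X) or -54 (MT2A) from the transcript start is shown with its core in capitals, as a site at a like distance in these 3 promoters (MT1B has one at -53 too), from chr16:56669751-56669777, chr16:56682407-56682433 and chr16:56608520-56608546, all on the plus strand.
MT1H: gcagggtctcTGCACCCggctccctcc
MT1X: gcggggcctcTGCGCCCggccctcttc
MT2A: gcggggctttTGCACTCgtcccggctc
A match is a description of the letters, and no binding was measured here. MT1G, MT1E, MT1F and MT1M have no entry in that table.

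MT1G (3′ UTR on the minus strand of chromosome 16, 56700343 to 56701110, hg19) had 25.8, 42 and 37 CPM with CTRL sh, 38.6, 46.8 and 46.9 CPM with CPSF1 sh1, and 136, 135 and 98.4 CPM with CPSF1 sh2. The control and CPSF1 sh1 libraries lay together and every CPSF1 sh2 library lay far above them. The log2 fold change of CPSF1 sh2 over CPSF1 sh1 was 1.48 (SE 0.143, edgeR adjusted p = 3.06e-05). MT1H had 20.6, 31.8 and 33.2 CPM with CTRL sh, 29.9, 37.6 and 38.7 CPM with CPSF1 sh1 and 101, 106 and 77.9 CPM with CPSF1 sh2, a change of 1.42 (SE 0.147, edgeR adjusted p = 4.37e-05). MT1X rose by 0.97, MT2A by 0.64 and MT1E by 0.59, each with no overlap between the shRNAs, which 23.5% of all genes tested share. MT1F at 0.84 (edgeR adjusted p = 0.136) and MT1M at 1.52 on 108 reads in all (adjusted p = 0.0846) missed the threshold. So 5 of the 7 metallothioneins tested were higher and 0 were lower, beside 0.796% and 1.04% of all genes tested. Over the settings compared 2 to 7 were higher. Their median change was 0.97, beside 0.000933 over all genes tested. Against CTRL sh their median was 0.27 with CPSF1 sh1 and 1.26 with CPSF1 sh2. The family was listed after these values were seen, and its members are near-identical paralogs whose reads the counting may have split wrongly.

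**Figure D2:**
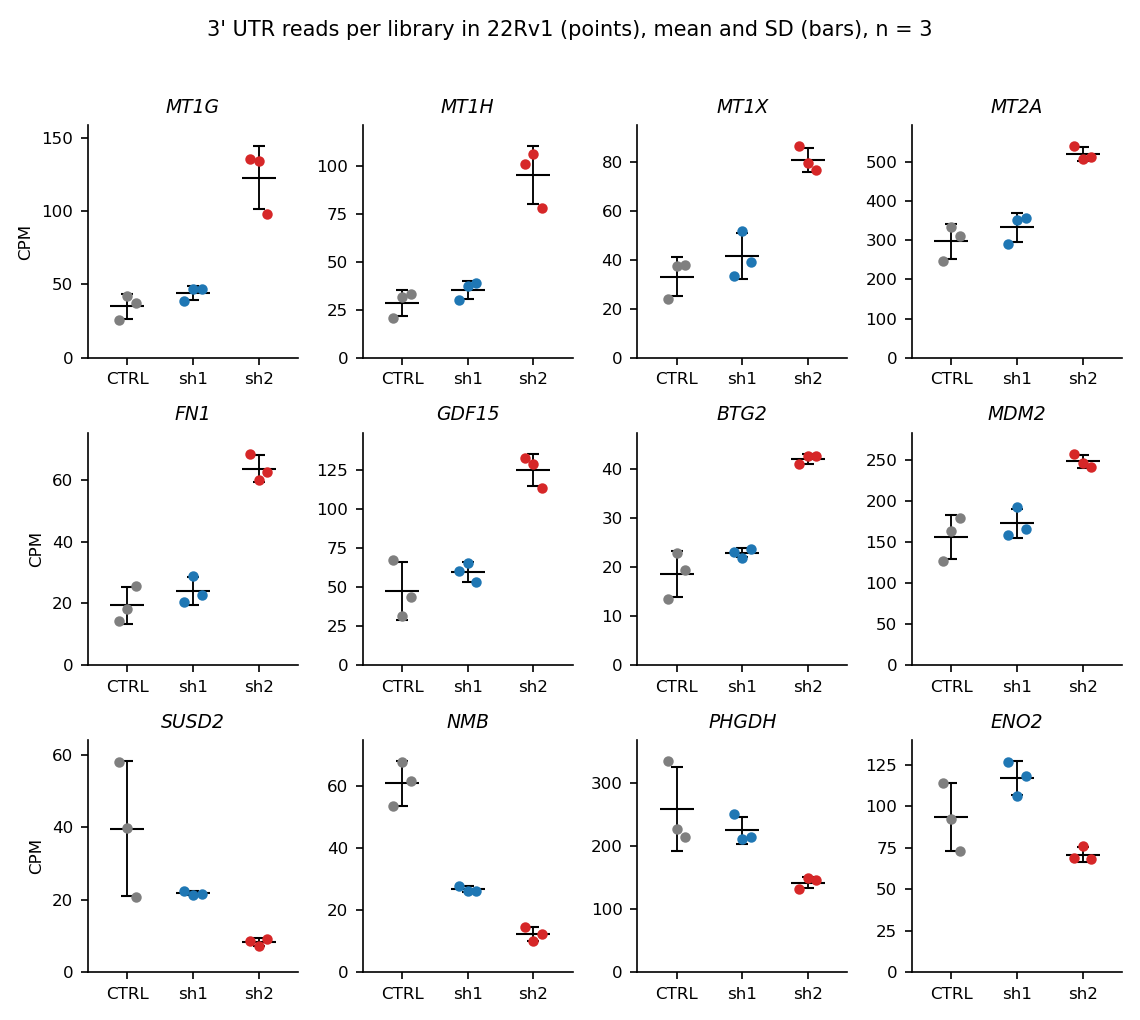
Reads in the 3′ UTR (CPM, linear axis from 0) of 12 genes in each 22Rv1 library, with points for the 3 libraries of CTRL sh (grey), CPSF1 sh1 (blue) and CPSF1 sh2 (red), and bars for the mean and SD. For MT1G the CPSF1 sh2 points lie between 98.4 and 136 CPM and the other 6 points at or below 46.9 CPM; for NMB both knockdown groups lie below the controls, CPSF1 sh2 furthest.

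Several secreted and matrix proteins were also among the higher genes. FN1, which encodes fibronectin, had 14.2, 18 and 25.7 CPM with CTRL sh, 20.4, 28.9 and 22.7 CPM with CPSF1 sh1 and 68.4, 59.8 and 62.6 CPM with CPSF1 sh2. The CPSF1 sh2 libraries stood alone, and FN1 changed by 1.42 (SE 0.149, edgeR adjusted p = 4.37e-05). IGFBP3, a binding protein that holds insulin-like growth factors outside the cell, had 88.4, 119 and 122 CPM with CTRL sh, 82.8, 93.7 and 85.2 CPM with CPSF1 sh1 and 187, 203 and 187 CPM with CPSF1 sh2. It changed by 1.14 (SE 0.111, adjusted p = 3.06e-05), and CPSF1 sh1 was not above the controls. GDF15, a secreted stress cytokine, had 31.5 to 67.7 CPM with CTRL sh, 53.1 to 65.4 CPM with CPSF1 sh1 and 114 to 133 CPM with CPSF1 sh2, a change of 1.08 (SE 0.123, adjusted p = 0.00014). THBS1, the matrix glycoprotein thrombospondin 1, rose by 1.00, the myosin light chain MYL9 by 1.22, the protocadherin PCDH20 by 0.99 and the actin regulator KANK1 by 1.05. BTBD1, an adaptor of ubiquitin ligases, rose by 1.45 from 4.40 to 6.18 CPM with CPSF1 sh1 to 12.5 to 18.7 CPM with CPSF1 sh2, and the controls, at 6.45 to 12.6 CPM, reached just into the CPSF1 sh2 range. MYC, the growth-promoting transcription factor, had 135, 236 and 153 CPM with CPSF1 sh1 and 325, 339 and 313 CPM with CPSF1 sh2, a change of 0.91 (SE 0.153, edgeR adjusted p = 0.00745). The controls of MYC, at 129, 314 and 265 CPM, spread over the range of both shRNAs.

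Among the 10 lowest fold changes named by the rule, NMB alone was called lower than CTRL sh with CPSF1 sh1, and SUSD2, NMB, WDR31, SCIN and SLC47A1 were with CPSF1 sh2. SUSD2, a membrane protein with a sushi domain, had 58.1, 39.9 and 20.8 CPM with CTRL sh, 22.5, 21.4 and 21.7 CPM with CPSF1 sh1 and 8.70, 7.15 and 9.23 CPM with CPSF1 sh2. It fell by 1.38 on the log2 scale (SE 0.197, edgeR adjusted p = 0.00245), and its controls were too scattered to place CPSF1 sh1. NMB, the peptide neuromedin B, was graded. It had 53.5, 67.8 and 61.7 CPM with CTRL sh, 28, 26.3 and 26.1 CPM with CPSF1 sh1 and 14.8, 10.0 and 12.4 CPM with CPSF1 sh2, with no overlap between any of the 3 groups, and fell by 1.10 between the shRNAs (SE 0.184, adjusted p = 0.00745). GNMT, which methylates glycine, SHD, WDR31, C19orf45, EXOC3L1, the actin-severing protein SCIN, the chromatin protein NPM2 and the transporter SLC47A1 fell by 0.99 to 1.16, all from CPSF1 sh1 levels of 9.83 to 39.6 CPM. PHGDH, the entry enzyme of serine synthesis, had 334, 227 and 215 CPM with CTRL sh, 250, 211 and 214 CPM with CPSF1 sh1 and 132, 149 and 146 CPM with CPSF1 sh2, and fell by 0.66 (SE 0.114, edgeR adjusted p = 0.00804). ENO2, the neuronal isoform of the glycolytic enzyme enolase, had 106 to 126 CPM with CPSF1 sh1 and 67.9 to 75.8 CPM with CPSF1 sh2, each overlapping the control range of 73.2 to 114 CPM, and fell by 0.72 (adjusted p = 0.00691). ENO2 is also a neuroendocrine marker, and the summed level of 8 such markers was 232 to 255 CPM with CPSF1 sh1 and 195 to 207 CPM with CPSF1 sh2, beside 221 to 269 CPM with CTRL sh. None of them was at 0 reads, and their part in the lower genes was not tested.

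In the 10 kb downstream table, 114 genes were higher with CPSF1 sh2 and 56 were lower, 0.783% and 0.384% of the 14565 genes tested. The higher group held IGFBP3, BTG2, MYC, CSTF3, HSP90B1, GPI and 13 ribosomal protein genes. Changes were larger than in the 3′ UTR table, with 69 of the 170 called genes past 2-fold (58 higher and 11 lower). With DESeq2 65 were higher and 41 lower. The count of 170 was 65 without CPSF1 sh2 replicate 1, 82 without CPSF1 sh2 replicate 2, 99 without CPSF1 sh1 replicate 3 and 65 without CPSF1 sh2 replicate 3. It was 123 and 185 without CPSF1 sh1 replicates 1 and 2, and 15 of the 170 genes were called under all 14 settings. The split of directions depended on the scaling. Library sizes summed over all 4 tables gave 238 genes higher and 21 lower, and with a GC correction 87 and 71.

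For the 114 higher genes the median log2 fold change over CTRL sh was 1.15 with CPSF1 sh1 (quartiles 0.50 and 2.20) and 2.28 with CPSF1 sh2 (1.50 and 3.43), or 1.12 and 2.27 with the 4 genes that had no control reads set at their bound. The medians over all genes tested were 0.20 and 0.20, and 0.17 and 0.17 with such genes at their bound. Of the 114 genes, CPSF1 sh1 had 53 called higher than CTRL sh and CPSF1 sh2 had 97. The edgeR fit over all genes called 925 genes with CPSF1 sh1 (6.44%) and 1720 with CPSF1 sh2 (12%), again against the same controls. The 56 lower genes resembled those of the 3′ UTR table, with medians of -0.16 with CPSF1 sh1 and -0.91 with CPSF1 sh2, and 12 and 38 genes called lower. Of the 114 higher genes 4 were called lower than CTRL sh with CPSF1 sh1. The 9 libraries were graded for 64 of the 114 higher genes (56.1%) and 17 of the 56 lower genes (30.4%), beside 2.29% and 0.728% of all genes tested, whose shRNA libraries were not chosen to differ. As before, the order of each pair is fixed by the choice of the genes.

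IGFBP3 had the lowest p of this table. Its downstream region (minus strand of chromosome 7, 45941650 to 45951649, hg19, with no annotated exon of another gene) had no reads in any CTRL sh library, 33.6, 42.4 and 54.2 CPM with CPSF1 sh1, and 206, 217 and 157 CPM with CPSF1 sh2. Every group was separate, and the log2 fold change between the shRNAs was 2.12 (SE 0.236, edgeR adjusted p = 4.7e-12). BTG2, an antiproliferative p53 target gene, had 5.85, 9.25 and 0 CPM with CTRL sh, 57.9, 53 and 64 CPM with CPSF1 sh1 and 137, 156 and 134 CPM with CPSF1 sh2. The groups were again in separate steps, and the change between the shRNAs was 1.26 (SE 0.237, adjusted p = 0.000236). GALNT10, which starts O-linked glycosylation, had 64.4, 78.6 and 132 CPM with CTRL sh, 579, 443 and 473 CPM with CPSF1 sh1 and 1004, 958 and 1086 CPM with CPSF1 sh2, a change of 1.03 (SE 0.131, adjusted p = 2.11e-09). It was named after its values were seen, as 1 of the 15 genes called under all settings.

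Other called genes also rose. CSTF3, a subunit of the cleavage stimulation factor, had 55.6 to 65.4 CPM with CPSF1 sh1 and 110 to 116 CPM with CPSF1 sh2 over controls of 0 to 9.25 CPM, and rose by 0.89. Its region also holds the pseudogene PIGCP1 on the same strand. Exons of another gene on the same strand also lie in the downstream regions of GPI (PDCD2L), NACC1, KLHL2, LRRN4CL, CDRT1, CDKL1, CDC20, LRRC56, TIRAP, RPL18, ALDOA and PFKM, so the source of those reads is uncertain. HSP90B1, a chaperone of the endoplasmic reticulum, had 245 to 326 CPM and 398 to 435 CPM over controls of 0 to 19.2 CPM, and rose by 0.59. GPI, the glycolytic enzyme glucose-6-phosphate isomerase, had 93.1 to 99.5 CPM with CTRL sh, 172, 149 and 167 CPM with CPSF1 sh1 and 283, 292 and 268 CPM with CPSF1 sh2, and rose by 0.78 (SE 0.173, adjusted p = 0.00342). In the 3′ UTR table GPI was at 311 to 338 CPM with CPSF1 sh1 and 301 to 328 CPM with CPSF1 sh2, a difference of -0.04 (adjusted p = 0.863). The p53 target genes SESN1 and CCNG1, a sestrin and a cyclin, rose by 0.85 and 0.44, and MYC by 1.10. PFKM, ALDOA, PGK1 and ALDH3A2 differed by 0.06, 0.49, 0.42 and 0.16 without passing (edgeR adjusted p = 0.936, 0.277, 0.513 and 0.63), and UGT2B17 by 0.13 (adjusted p = 0.965).

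**Figure D3:**
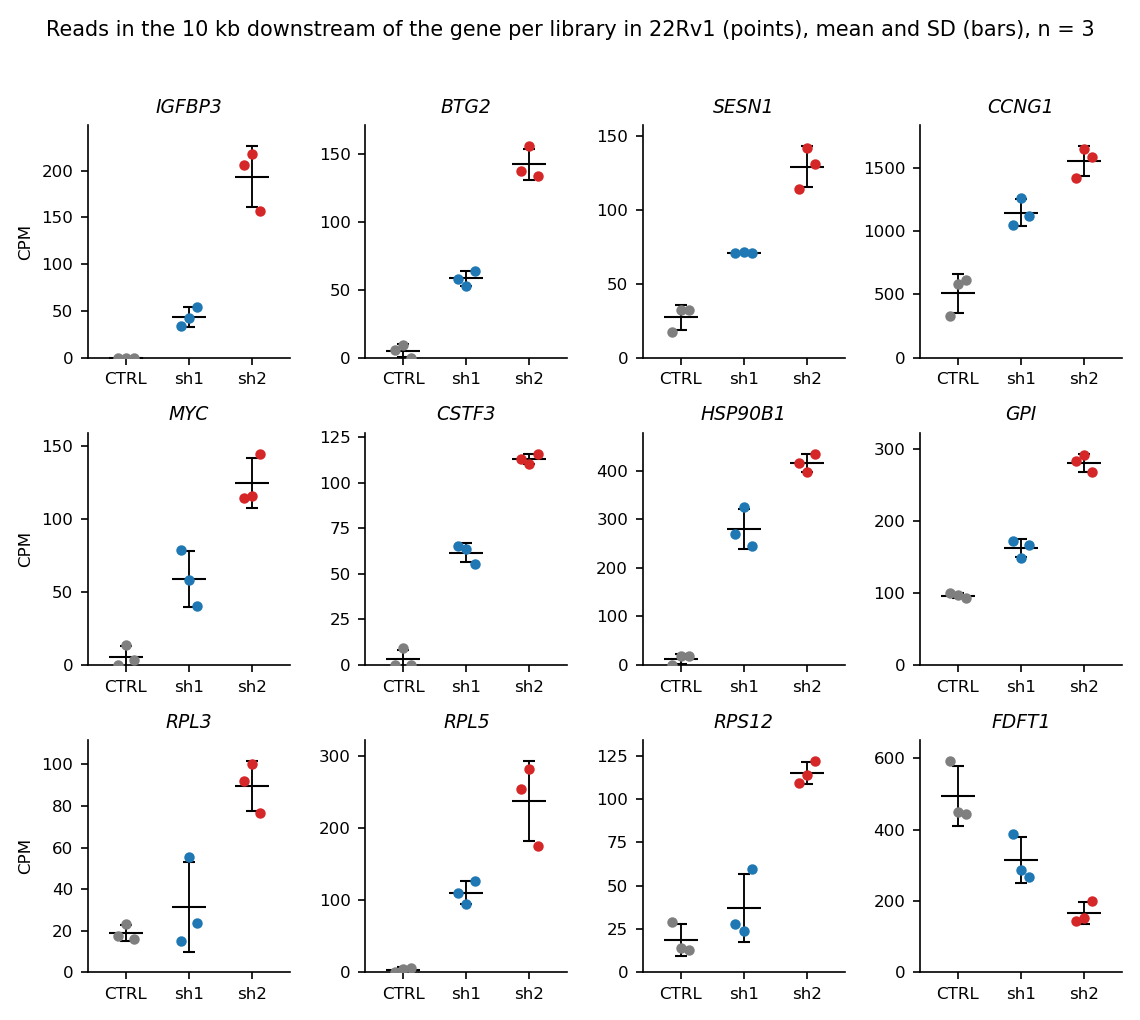
Reads in the 10 kb downstream of 12 genes (CPM of that table, linear axis from 0) in each 22Rv1 library, with points for the 3 libraries of CTRL sh (grey), CPSF1 sh1 (blue) and CPSF1 sh2 (red), and bars for the mean and SD. For IGFBP3 the groups run from 0 CPM through 33.6 to 54.2 CPM to 157 to 217 CPM.

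The genes with the highest fold changes in this table rested on few reads. HIF1A, the hypoxia-inducible transcription factor, had 5 reads over the 3 CPSF1 sh1 libraries and 51 over the 3 CPSF1 sh2 libraries, a ratio of 8.09 after scaling (95% counting interval 3.25 to 26). RPL12, a ribosomal protein gene, had 8 and 55 reads (5.45, 2.58 to 13.3) and ETV5, an ETS-family transcription factor, 6 and 42 reads (5.55, 2.35 to 16). These intervals cover counting error only. CD164, MOBP, CLU, CLDN1, IRAK4 and SLC7A1 rose by 1.84 to 2.32 from CPSF1 sh1 levels that reached 22.4 CPM at most. Among the lower genes NACC1 fell by 1.64, but its CPSF1 sh1 values of 41.1, 45.1 and 170 CPM were carried by replicate 3. LRRN4CL, LRRC56, CDRT1, CDKL1 and SLC45A3, a prostate-specific membrane transporter, fell by 1.01 to 1.31, and replicate 2 of CPSF1 sh2 (81.9 CPM) lay near the CPSF1 sh1 libraries of SLC45A3. FDFT1, the squalene synthase of cholesterol synthesis, had 591, 449 and 443 CPM with CTRL sh, 387, 286 and 268 CPM with CPSF1 sh1 and 144, 152 and 200 CPM with CPSF1 sh2. Its 3 groups stood apart in steps, and it fell by 0.93 between the shRNAs (SE 0.172, edgeR adjusted p = 0.000208). AAR2, TIRAP and KLHL2 fell by 0.90 to 0.92. MKI67, the proliferation marker Ki-67, had another pattern. It had 111 to 231 CPM with CTRL sh, 318 to 428 CPM with CPSF1 sh1 and 172 to 229 CPM with CPSF1 sh2, so CPSF1 sh1 alone lay above the controls, and it fell by 0.86 between the shRNAs (adjusted p = 0.000236). CDC20, an activator of the anaphase-promoting complex, fell by 0.71.

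The genes called in the 10 kb table were looked up in their own 3′ UTR, in the same libraries. Of the 114 higher genes, 108 were tested there, with a median change of 0.13 in the 3′ UTR against 1.00 downstream, and 8 of them (7.41%) were called higher, beside 0.796% of all 3′ UTR genes. Of the 56 lower genes, 41 were tested, with medians of -0.19 and -0.71, and 1 (2.44%) was called lower, beside 1.04%. BTG2, CLDN1, IGFBP3, MYC, RAB21, UCK2, RCC1, MOBP and C19orf45 were the 9 genes called in both tables, all in the same direction, 4.25% of the 3′ UTR calls and 5.29% of the 10 kb calls.

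The ratio of downstream to 3′ UTR reads of a gene, tested in a single model of both tables, was higher with CPSF1 sh2 for 11 genes and lower for 0 of the 10235 tested (0.107% and 0%). With an unadjusted p under 0.05, edgeR had 654 genes higher and 333 lower, and no other tool was run on the ratio. The 11 included RPL3, RPL5, RPL13, RPL18, RPS12, RPS20, the linker histone H1FX and the synaptotagmin SYT4. The count was 5 without CPSF1 sh1 replicate 1, 0 without CPSF1 sh2 replicate 1, 10 without CPSF1 sh1 replicate 2, 0 without CPSF1 sh2 replicate 2, and 1 without either of the replicates numbered 3, so none of them was called under all settings. RPL3, a core protein of the large ribosomal subunit, had downstream reads equal to 0.0208 to 0.0359% of its 3′ UTR reads with CTRL sh, 0.0410, 0.168 and 0.0724% with CPSF1 sh1, and 0.312, 0.310 and 0.287% with CPSF1 sh2. The CPSF1 sh2 libraries were above all others. RPL5 had 0 to 0.0140% with CTRL sh, then 0.389 to 0.501% with CPSF1 sh1 and 0.943 to 1.41% with CPSF1 sh2, a graded order.

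Ribosomal protein genes were listed as a family after these names were seen. Of the 76 tested downstream, 13 were higher with CPSF1 sh2 and 0 were lower, beside 0.783% and 0.384% of all genes tested. Their median was 0.50, beside 0.0184 over all genes tested. With an unadjusted p under 0.05, edgeR had 31 higher and 2 lower, beside 914 and 696 of all 14565 genes. DESeq2 called 10 of them higher. In the ratio 8 of 75 were higher, beside 0.107% of all genes tested. In their own 3′ UTR 0 of 83 were higher and 7 lower, beside 0.796% and 1.04% of all genes tested, with a median of -0.09. With an unadjusted p under 0.05, edgeR had 4 higher and 25 lower there, beside 1038 and 1176 of all 11554 genes. DESeq2 called 0 higher and 10 lower there. Over the settings compared 0 to 16 were lower and 0 to 2 higher in the 3′ UTR table, and 4 to 21 were higher downstream. With the GC correction 2 were lower in the 3′ UTR table, and with the replicate block 0. The 3′ UTR median of the list stayed between -0.115 and -0.0915. Against CTRL sh their downstream median was 0.66 with CPSF1 sh1 and 1.12 with CPSF1 sh2. RPL5 had 0, 4.62 and 6.42 CPM downstream with CTRL sh, 110, 95.5 and 127 CPM with CPSF1 sh1 and 255, 282 and 176 CPM with CPSF1 sh2, a change of 1.08 (SE 0.191, edgeR adjusted p = 9.59e-05). RPS12 had 12.8 to 29.3 CPM, 28, 23.9 and 59.8 CPM, and 109, 114 and 122 CPM in the same order, a change of 1.53 (adjusted p = 0.000126). RPS6 changed by 0.92 and RPL3 by 1.61, and these 4 genes were called downstream under all settings. Ribosomal protein genes have many processed copies in the genome, so the placement of their reads is uncertain.

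Over the whole library, reads in the 10 kb table made up 4.93, 4.46 and 4.59% with CTRL sh, 5.63, 5.51 and 5.55% with CPSF1 sh1, and 6.18, 6.03 and 6.29% with CPSF1 sh2. The 3 groups did not overlap, and the step between the shRNAs was 0.605 percentage points (exact permutation p = 0.1, two-sided, the smallest 3 against 3 libraries allow, and 0.2 adjusted over the 4 tables). Introns held 28.2 ± 0.726% of the CPSF1 sh1 reads (SD, n = 3) and 25.3 ± 1.46% of the CPSF1 sh2 reads (SD, n = 3), which differ by -2.83 points (two-sided exact permutation p = 0.1). The intron figure moved with the MTRNR2L genes, copies of mitochondrial ribosomal RNA that took 16 to 31% of the intron reads. Without them the intron difference was -0.65 points and the 10 kb difference 0.458 points. The 3′ UTR and CDS shares differed by 3.20 and -0.97 points (exact permutation p = 0.2 and 0.7).

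In the intron table, 91 genes were higher with CPSF1 sh2 and 29 lower, 0.731% and 0.233% of the 12447 tested. The higher genes had medians over CTRL sh of 0.42 with CPSF1 sh1 and 1.16 with CPSF1 sh2. Of these 91 genes, 28 and 65 were called higher, beside 168 and 436 of all 12319 genes tested against CTRL sh. With CPSF1 sh1 3 of them were called lower than CTRL sh, and 15 without CTRL sh replicate 1. The libraries were graded for 44 of the 91 higher genes (48.4%) and 5 of the 29 lower genes (17.2%), beside 1.53% and 0.675% of all genes tested. The lower genes had medians of -0.14 and -0.78, beside -0.01 and -0.02 over all genes tested. SORCS2, a sorting receptor of the VPS10 family, had 130, 91.8 and 143 CPM with CTRL sh, 149, 157 and 125 CPM with CPSF1 sh1 and 366, 390 and 380 CPM with CPSF1 sh2. The controls and CPSF1 sh1 were mixed, the CPSF1 sh2 libraries far above both, and the change was 1.41 (SE 0.105, edgeR adjusted p = 2.57e-10). RYK, a Wnt receptor, was graded, with 47.8 to 95.4 CPM, 143 to 162 CPM and 274 to 285 CPM in the 3 groups, and rose by 0.91 (adjusted p = 1.9e-06). It was named after its values were seen, as were AHNAK (1.04) and SLIRP (0.96), from the 19 genes called under all settings.

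WDR74, a ribosome assembly factor, changed by 2.00 in its introns (SE 0.272, edgeR adjusted p = 6.1e-05), but its region (minus strand of chromosome 11, 62600050 to 62609281) holds the small nuclear RNA copy RNU2-2P and TEX54 on the same strand, so the source of these reads is uncertain. RP11-618P17.4, LIN28B and CD38 rose by 1.16 to 1.35, and for LIN28B the controls (16.7 to 29.7 CPM) lay at the CPSF1 sh2 level and CPSF1 sh1 (3.78 to 17.8 CPM) below it. The region of RP11-618P17.4 (plus strand of chromosome 19, 34887335 to 34900066) holds exons of GPI and PDCD2L on the same strand. It also spans part of the downstream region of GPI, so its reads may be those of GPI counted again. The introns of SORCS2 also hold MIR4274 and MIR4798 on the same strand. Lower genes were DLG3, the stress pseudokinase TRIB3, the homeobox gene IRX3, which fell by 0.81, and SQLE, the squalene epoxidase of cholesterol synthesis, which fell by 0.74. PLCB4 fell by 1.50 on CPSF1 sh2 values of 433, 3026 and 721 CPM, whose replicate 2 lay near the CPSF1 sh1 libraries. The intron count of 120 was 49 without CPSF1 sh1 replicate 1, 49 without CPSF1 sh2 replicate 1, 70 without CPSF1 sh2 replicate 2, 58 without CPSF1 sh1 replicate 3 and 55 without CPSF1 sh2 replicate 3. It was 157 without CPSF1 sh1 replicate 2. With summed library sizes 34 genes were higher and 24 lower.

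The CDS table gave 2 higher genes and 3 lower, 0.0401% and 0.0601% of the 4988 tested. The total of 5 was 45 without CPSF1 sh1 replicate 2, 2 without CPSF1 sh2 replicate 1 or 3, 3 without CPSF1 sh1 replicate 3 or CPSF1 sh2 replicate 2 and 4 without CPSF1 sh1 replicate 1, and no gene was called under all 13 settings. ANKRD1 and TRIM27 were called under 11 of them and gave no adjusted p under DESeq2 or with every library above 2 CPM. ANKRD1, an ankyrin-repeat protein and YAP target gene, had 5 reads with CPSF1 sh1 and 121 with CPSF1 sh2, a ratio of 23.4 (95% counting interval 9.77 to 73.5). LAMC1, the laminin gamma chain of the basement membrane, had 336 to 365 CPM with CTRL sh, 321, 358 and 334 CPM with CPSF1 sh1 and 513, 534 and 469 CPM with CPSF1 sh2, and rose by 0.58 (SE 0.109, edgeR adjusted p = 0.0361). TRIM27 had 278 reads with CPSF1 sh1 and 5 with CPSF1 sh2, 57.4-fold lower (24.3 to 178). BEX1 and the chromatin protein HMGB2 fell by 0.71 and 0.49, and HMGB2 was graded, at 6300 to 7579 CPM with CTRL sh, 3832 to 4376 CPM with CPSF1 sh1 and 2642 to 3114 CPM with CPSF1 sh2.

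Reads summed over the 4 tables gave 172 genes higher and 146 lower, 1.25% and 1.06% of the 13781 tested. The count of 318 was 35 without CPSF1 sh2 replicate 1, 1020 without CPSF1 sh1 replicate 2, 117 without CPSF1 sh2 replicate 2, 107 without CPSF1 sh1 replicate 3 and 55 without CPSF1 sh2 replicate 3, and 370 without CPSF1 sh1 replicate 1. MT1G (1.53), MT1H (1.50), SORCS2 (1.32), FN1 (1.30) and IGFBP3 (1.28) rose most. TNNT1, the slow skeletal troponin T, fell most, by 0.88, and was graded, with 68.3 to 79.2 CPM, 37 to 41.5 CPM and 18.7 to 23.3 CPM in the 3 groups. GPC2, SCIN, EXOC3L1 and C19orf45 fell by 0.74 to 0.80.

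p53 target genes mediate cell cycle arrest and apoptosis downstream of p53. In the summed reads 10 of the 19 tested were higher and 0 lower, beside 1.25% of all genes called higher, the median was 0.43, and 17 of 19 were above 0, beside a median of -0.0035 over all genes. With an unadjusted p under 0.05, edgeR had 13 higher and 0 lower, and DESeq2 called 10 higher and 0 lower. The 10 were GDF15 (1.13), BTG2 (1.06), the RNA-binding protein ZMAT3 (0.79), PHLDA3 (0.61), which restrains AKT, the BH3-only protein BBC3 (0.61), the p53 ligase MDM2 (0.52), the death receptor TNFRSF10B (0.48), the CDK inhibitor CDKN1A (0.43), CCNG1 (0.41) and BAX (0.37). BTG2 had 6.69, 14.4 and 11.5 CPM with CTRL sh, 14.2, 14.8 and 15.9 CPM with CPSF1 sh1 and 30.8, 32 and 31.3 CPM with CPSF1 sh2. CDKN1A had 12.8, 19.8 and 24.8 CPM, then 41.4, 39.8 and 43.5 CPM, then 61.1, 49.3 and 58 CPM. BTG2 therefore stayed near the controls with CPSF1 sh1, whereas CDKN1A and PHLDA3 (15.5 to 18.5, 31.2 to 39.2 and 51.4 to 55.8 CPM) were graded. Over the list the median against CTRL sh was 0.18 with CPSF1 sh1 and 0.57 with CPSF1 sh2. In the 3′ UTR table, 5 of 19 were higher and 0 lower, beside 0.796% and 1.04% of all genes tested there. The median was 0.33, beside 0.000933 over all genes tested. Over the settings compared 2 to 10 members were higher in the summed reads and 0 to 6 in the 3′ UTR table, while the median stayed between 0.35 and 0.48 and between 0.30 and 0.45.

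Sterol and fatty acid synthesis genes, driven by the SREBP factors, moved the other way. In the summed reads 4 of 24 were lower and 0 higher, beside 1.06% of all genes called lower, the median was -0.23 beside -0.0035 over all genes, and 4 members were above 0. With an unadjusted p under 0.05, edgeR had 13 lower and 0 higher, and DESeq2 called 4 lower and 0 higher. The 4 included HMGCS1, the synthase before the rate-limiting step, which fell by 0.51, the SREBP regulator INSIG1, by 0.48, and the desaturase SCD, by 0.42. SCD was graded, with 370 to 514 CPM with CTRL sh, 239, 283 and 258 CPM with CPSF1 sh1 and 196, 184 and 204 CPM with CPSF1 sh2. HMGCS1 was too, with 300.3 to 314 CPM, 186 to 204 CPM and 126 to 143 CPM. The median of the list against CTRL sh was -0.40 with CPSF1 sh1 and -0.65 with CPSF1 sh2. Over the settings compared 0 to 5 members were lower, and the median stayed between -0.24 and -0.21. The GC correction was not run on the summed reads. For the 3′ UTR it took the median of the list from -0.27 to -0.15, with 3 members called lower in both fits.

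Other lists gave single calls. Of the androgen response genes 2 of 19 were lower in the summed reads, with a median of -0.01, among them the kallikrein KLK4, which fell by 0.40. Over the settings compared 0 to 2 of these genes were lower there. In the glycolysis list ENO2 alone was lower in the 3′ UTR table (1 of 17) and GPI alone higher in the 10 kb table (1 of 17). None of the 14 cleavage and polyadenylation factors was called in the 3′ UTR table by edgeR (3 higher and 1 lower with an unadjusted p under 0.05) or by DESeq2. The small RNA silencing machinery, which loads and processes an shRNA, had 0 of 13 called there by edgeR, 0 with an unadjusted p under 0.05 and 0 by DESeq2. Of 11 interferon response genes ISG15, a ubiquitin-like modifier, fell by 0.77 from 1067, 546 and 835 CPM with CPSF1 sh1 to 458, 522 and 455 CPM with CPSF1 sh2, and none of the other 10 was called. Of 18 genes of the integrated stress and unfolded protein response, the sestrin SESN2 was higher by 0.64 and PHGDH lower in the 3′ UTR table. The hypoxia targets had 0 of 13 called in the 3′ UTR table by edgeR (1 lower with an unadjusted p under 0.05) and 0 by DESeq2. Of the DNA replication and mitosis genes 0 of 25 were called there by edgeR (1 higher and 3 lower with an unadjusted p under 0.05) and 0 by DESeq2. None of the 13 mitochondrial transcripts passed the filter, and of 12 immediate early and heat shock genes MYC alone was called there.

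LNCaP and LNCaP95 cells carry the same 2 shRNAs in libraries that share nothing with the 22Rv1 test. Few genes separated the shRNAs there. In LNCaP edgeR called 3 genes in the 3′ UTR table (0.0272%) and 22 in the 10 kb table (0.164%). In LNCaP95 it called 0 (0%) and 0 (0%), with 741 and 797 genes at an unadjusted p under 0.05, and DESeq2 was not run in these lines. The median SE of a 3′ UTR gene was 0.236 and 0.219 in these lines and 0.172 in 22Rv1. Of the genes called in the 10 kb table of 22Rv1, 68.6% had the same sign of CPSF1 sh2 minus CPSF1 sh1 in LNCaP and 66.5% in LNCaP95, beside 53.3% and 51.8% of all genes tested in both. RPS6 was also called higher in LNCaP, by 0.92 (edgeR adjusted p = 0.00832). For the 3′ UTR calls the shares were 30.7% and 41.2%, beside 39.7% and 43.2%. Over the p53 list the median of the summed reads was -0.12 in LNCaP and -0.17 in LNCaP95, and over the sterol list -0.17 and -0.06.

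**Figure D4:**
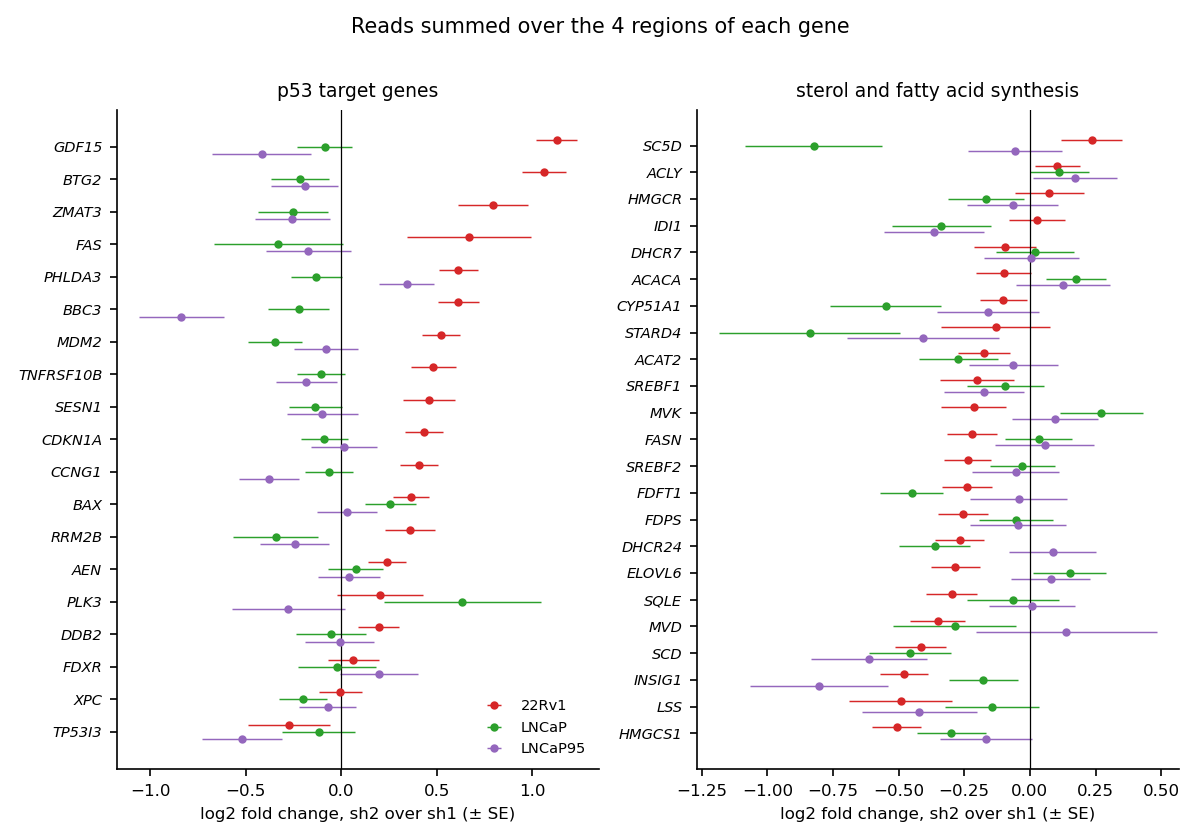
Log2 fold change of CPSF1 sh2 over CPSF1 sh1 (horizontal axis, ± SE) in reads summed over the 4 tables for the p53 target genes (left) and the sterol and fatty acid synthesis genes (right, 1 member not drawn) tested in 22Rv1 (red), LNCaP (green) and LNCaP95 (purple). In 22Rv1 17 of 19 p53 target genes lie above 0, against 3 in LNCaP and 5 in LNCaP95.

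The difference between lines was tested as a term of a model over the 18 knockdown libraries. In the 3′ UTR table, 7 genes had a different shRNA effect in LNCaP than in 22Rv1 (0.0595%) and 5 in LNCaP95 (0.0425%). They included 6 and 5 of the 210 genes called in 22Rv1, all with a term of opposite sign to the effect in 22Rv1. That sign is favoured by the choice of the genes, since the same 22Rv1 libraries enter the term. Called or not, 200 and 199 of the 210 genes had it. MT1G differed by -1.94 in LNCaP (SE 0.275, edgeR adjusted p = 0.00147) and by -2.09 in LNCaP95 (SE 0.285, adjusted p = 0.000823), and MT1H by -1.93 and -2.03. In the intron table the terms called 8 (0.0637%) and 1 (0.00796%) genes, SORCS2 in both. In the summed reads they called 22 (0.157%) and 8 (0.0571%), 15 and 7 of them among the 315 genes of 22Rv1. In the 10 kb table they called 1 (0.00672%) and 2 (0.0134%), but 0 and 0 of the 170 genes of 22Rv1. Of these 170 genes, 62 and 80 had an unadjusted p under 0.05 in edgeR, beside 1112 and 868 of all 14881 tested. They too were chosen on 22Rv1 libraries that enter the term, which favours a low p. In the CDS table they called 0 (0%) and 0 (0%) genes, with 430 and 312 at an unadjusted p under 0.05. DESeq2 was not run on these terms. Beyond the genes with a called term, no difference is shown to be particular to 22Rv1.

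The knockdown itself, both shRNAs together against CTRL sh, was then read in the other lines for the genes that separated the shRNAs in 22Rv1. Of the higher genes of the 10 kb table, 70.8% were called higher after knockdown in LNCaP (75 of 106) and 75% in LNCaP95 (81 of 108), beside 9.52% and 17.6% of all genes tested in the line. Of the lower genes, 45.5% and 51.9% were called lower, beside 5.2% and 10.1%. IGFBP3, BTG2, CSTF3, HSP90B1, GPI, SESN1, CCNG1 and MYC were each called higher in the 10 kb table of both lines. In the 3′ UTR table, 35.7% and 21.4% of the higher genes were called higher, beside 8.24% and 15.2%, and 44.9% and 38.1% of the lower genes were called lower, beside 10.1% and 15.2%. Genes called in 22Rv1 were better covered than most, at a median of 130 CPM in the 10 kb table beside 15.6 CPM over all genes tested, and the part of coverage in these shares was not tested. The leading metallothioneins passed no test after knockdown in these lines. MT1G differed by -0.38 after knockdown in LNCaP and -0.26 in LNCaP95 (edgeR adjusted p = 0.178 and 0.378), and MT1H by -0.39 and -0.25 (adjusted p = 0.149 and 0.414). MT2A fell by 0.46 in LNCaP (adjusted p = 0.0282). GDF15 fell, by 1.02 and 2.39. IGFBP3 rose in the 3′ UTR table of both, by 2.87 and 2.69, and FN1 rose by 1.84 in LNCaP95 and differed by -0.34 in LNCaP (adjusted p = 0.0995).

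**Figure D5:**
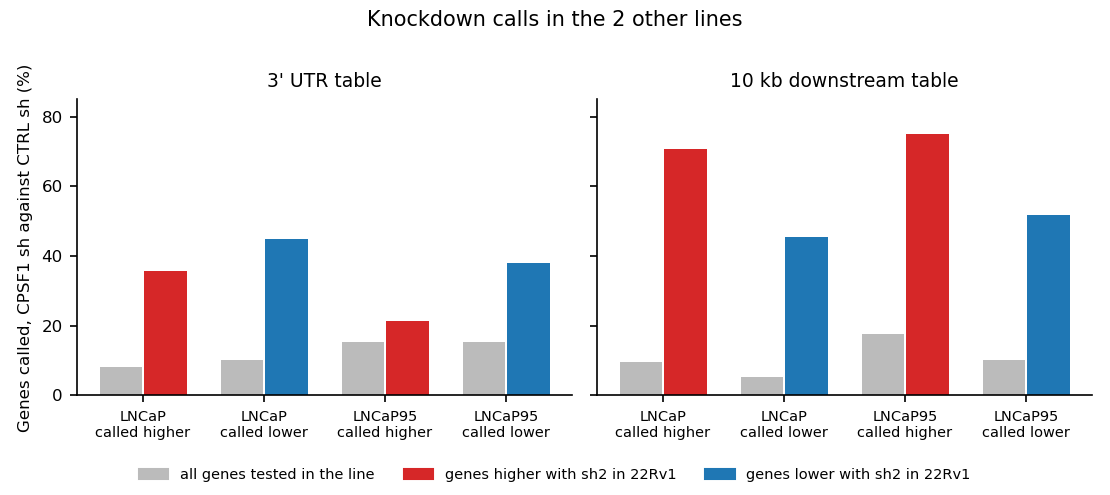
Share of genes called in the comparison of both CPSF1 shRNAs with CTRL sh in LNCaP and LNCaP95 (percent, axis from 0), for all genes tested in the line (grey), the genes higher with CPSF1 sh2 in 22Rv1 (red, share called higher) and the genes lower with it (blue, share called lower). In the 10 kb panel the red bars reach 70.8% and 75% beside grey bars of 9.52% and 17.6%.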

How the data were processed

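PAC-seq libraries were read on a NextSeq550, and the authors aligned reads to hg19 and assigned the 3′-most base of each, with strand, to the 3′ UTR, introns, CDS or 10 kb downstream of a gene. The submitters' processing notes name HISAT2 2.1.0, Subread 2.0.3 and GRCh37. The deposited values are raw read counts per gene, with Ensembl gene models, and 88.8% of the 20268 symbols matched the annotation.

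From these counts, genes with a mean above 2 CPM over the 6 libraries of CPSF1 sh1 and CPSF1 sh2 in 22Rv1 were scaled by TMM within each table and tested with edgeR 4.0.16 (quasi-likelihood F-test, R 4.3.3), 3 against 3 libraries, with an adjusted p threshold of 0.05. Fits against CTRL sh took the 9 libraries of the line. The downstream ratio, of 10 kb over 3′ UTR reads, was tested as an interaction, with a term for each library. DESeq2 1.42.0, a replicate block, other filters and scalings and each library left out were alternatives. Shares of reads were compared by exact permutation. Sequences came from RefSeq.

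Named genes were the 10 highest and 10 lowest fold changes in the 3′ UTR and 10 kb tables, and 5 and 5 elsewhere, among called genes of at least 10 CPM whose shRNA libraries did not overlap, with listed genes that were called. The members and lists were chosen with earlier results of these data known. The depth of each library is in the report, and intervals cover counting error only. Some genes that met the naming rule are not reported here.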

Additional observations from a re-analysis of the deposited data

Results flagged for a closer look

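The effect of CPSF1 sh2 over CPSF1 sh1 differed between lines, by a term of the model over the 18 knockdown libraries (other line minus 22Rv1, log2, edgeR with Benjamini-Hochberg adjustment), for the following named genes. In the 3′ UTR table the term for LNCaP was -1.94 for MT1G (adjusted p = 0.00147), -1.93 for MT1H (adjusted p = 0.000717), 1.30 for PHGDH (adjusted p = 0.00581) and -1.34 for BTG2 (adjusted p = 0.048). For LNCaP95 it was -2.09 for MT1G (adjusted p = 0.000823), -2.03 for MT1H (adjusted p = 0.000642), -1.42 for GDF15 (adjusted p = 0.022) and -1.33 for BBC3 (adjusted p = 0.022).

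In the intron table the term was -3.37 for WDR74 (adjusted p = 0.0232) and -1.32 for SORCS2 (adjusted p = 0.00957) in LNCaP, and -1.56 for SORCS2 (adjusted p = 0.00277) in LNCaP95. In the reads summed over the 4 tables it was -2.09 for MT1G, -2.10 for MT1H, -1.27 for BTG2 and 1.11 for PHGDH in LNCaP. In LNCaP95 the summed reads gave -2.19 for MT1G, -2.18 for MT1H, -1.38 for SORCS2, -1.44 for BBC3, -1.25 for BTG2 and -1.53 for GDF15. Each of these values has a sign opposite to the effect in 22Rv1. The genes were named from 22Rv1 libraries that enter the term, which favours that sign. With 3 libraries in every group, the gap test for an outlying value of a single gene was not run.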

How the results depend on the processing

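The spread between 3 libraries and the depth of the 10 kb table limit these calls, and single libraries moved every count. Without a filter on low counts the fits called 719 genes in the 3′ UTR table, 208 in the introns, 47 in the CDS, 46 in the ratio and 624 in the summed reads. With every library above 2 CPM they called 2 in the CDS and 37 in the ratio. With the 9 libraries of the line sharing the spread they called 6 in the 3′ UTR table, 19 in the introns, 2 in the CDS, 21 in the 10 kb table, 0 in the ratio by edgeR and 26 in the summed reads. DESeq2 called 35 in the CDS and 106 in the 10 kb table. Library sizes summed over the 4 tables gave 58 in the introns, 259 in the 10 kb table and 5 in the ratio. The cause of these changes was not tested, except that fits with other filters test other numbers of genes.

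Same-numbered CPSF1 sh1 and CPSF1 sh2 libraries showed no pairing in the 3′ UTR table, with correlations of -0.12, -0.13 and 0.013. So few correlations cannot exclude that libraries of the same number were made together. With the replicate block the counts were 26 in the 3′ UTR table, 77 in the introns, 0 in the ratio by edgeR and 86 in the summed reads, and the ALDOA difference of the summed reads turned to 0.00171. Over the genes called with the block, the 3′ UTR medians against CTRL sh were 1.03 with CPSF1 sh2 for the higher genes, and -0.38 with CPSF1 sh1 and -1.17 with CPSF1 sh2 for the lower genes.

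Leaving out each library gave 7 to 834 genes in the 3′ UTR table, 49 to 157 in the introns, 2 to 45 in the CDS, 65 to 185 in the 10 kb table, 0 to 10 in the ratio by edgeR and 35 to 1020 in the summed reads. Differences of genes that passed no test changed sign. In the introns they ran from -0.14 to 0.32 for CPSF1, -0.12 to 0.15 for GPI, -0.16 to 0.19 for PFKM, -0.14 to 0.22 for ALDOA and -0.47 to 0.22 for UGT2B17. They ran from -0.77 to 0.33 for UGT2B17 in the CDS. In the 10 kb table they ran from -0.18 to 0.31 for CPSF1, -0.13 to 0.14 for PFKM and -0.0417 to 0.47 for UGT2B17. In the ratio they ran from -0.0704 to 0.51 for CPSF1 and -0.38 to 0.10 for PFKM. In the summed reads they ran from -0.13 to 0.0774 for ALDOA and -0.21 to 0.12 for UGT2B17. The CDS share ran from -1.89 to 0.348 points.

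With a GC correction CPSF1 turned to 0.0144, GPI to 0.0527 and PGK1 to -0.0269 in the 3′ UTR table, and PFKM to -0.0245 in the 10 kb table. With summed library sizes PFKM, intron, turned to -0.0777 and ALDOA, intron, to -0.00962. Without the MTRNR2L genes the share differences were -0.648 points for introns and 0.458 points for the 10 kb table, and the CDS share as a median per gene was 0.101 points. Without CTRL sh replicate 1 the medians of the lower 3′ UTR genes were 0.175 with CPSF1 sh1 and -0.469 with CPSF1 sh2, and 0.446 with CPSF1 sh2 for the higher genes. The GC correction, the fits without MTRNR2L and the one without that control were chosen after seeing the data.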

Other observations

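AKR1C1, AKR1C2 and AKR1C3, ketosteroid reductases on chromosome 10, were lower with CPSF1 sh2 in the 3′ UTR table by edgeR, and were singled out after their values were seen. AKR1C3, which makes testosterone from androstenedione, had 76.8, 79.5 and 72.2 CPM with CTRL sh, 36.8, 36.4 and 41.5 CPM with CPSF1 sh1 and 21.5, 18.4 and 21.6 CPM with CPSF1 sh2. Its 3 groups did not overlap, and it fell by 0.90 between the shRNAs (SE 0.149, edgeR adjusted p = 0.00745). AKR1C1 fell by 0.70 (SE 0.14, adjusted p = 0.0188) and AKR1C2 by 0.80 (SE 0.132, adjusted p = 0.00745). The 3 genes are near-identical in sequence, and reads of one may have been counted for another.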
